A study of Mus musculus with 16 samples.

Results

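The genes described are 10 lysosomal genes: the cathepsins Ctsb, Ctsl, Ctss, Ctsc, Ctsz and Ctsd, the thiol reductase gene Ifi30, the peptide transporter gene Slc15a3, and Pla2g15 and Hgsnat, which encode a lysosomal phospholipase and a heparan sulfate acetyltransferase. They are 10 of the 19938 genes measured, and each had 1 probe set naming it alone. The set was chosen by name for its place in the lysosome, with earlier results of these data known. Shares of all genes printed beside its counts are therefore a description and not an independent test. Expression was measured in footpad RNA from AIRmax and AIRmin mice, outbred stocks derived by bidirectional selection for a high or a low acute inflammatory reaction, on 16 Mouse Gene 1.0 ST arrays, with 1 mouse to an array. Each line had a control group and a pristane group, which made 4 groups, each with 4 arrays from 2 males and 2 females labelled as 2 to 4 months old. Pristane mice had been given 2 intraperitoneal injections of 0.5 ml of this mineral oil, which induces arthritis, with 60 days between them. Control footpads were labelled day 0 and pristane footpads day 160, and the same age was labelled for both. Treatment, time and any difference of age at sampling therefore cannot be told apart within a line. The labels set the control group apart from the pristane group, and it is not stated that control mice had received no pristane. The lines differ throughout the genome as selected stocks, so a difference between lines cannot be assigned to 1 locus.

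Lysosomes are acidic organelles that break down proteins, lipids and glycans taken up from outside the cell or delivered from within it, and they are abundant in macrophages and osteoclasts. Cathepsins are their main proteases, made as inactive precursors and cleaved to the active form in the acid compartment. In cells that present antigen the same proteases trim proteins and the invariant chain, and Ifi30 reduces disulfide bonds, so that peptides can be loaded on MHC class II molecules. Cathepsins can also act outside the cell, and several of them are known for degrading joint matrix in arthritis.

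The AIRmax mice were numbered 105 to 108 (control) and 109 to 112 (pristane) and the AIRmin mice 113 to 116 (control) and 117 to 120 (pristane), with the males first in each group, and values are listed in that order. Values are normalized log2 signals as deposited, with array medians from 5.435 to 5.530 and no 2 arrays identical. Xist and the Y-linked genes Eif2s3y, Kdm5d and Uty separated the labelled sexes on all 16 arrays. In the sex that lacks them these genes read between 2.04 and 4.32, and the lowest value of any of the 10 lysosomal genes was 6.26. A gene was called at a Benjamini-Hochberg adjusted p under 0.05 in limma over all 19938 genes. The unit of replication was the mouse, and 4 mice a group limit the precision of every value below.

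In pristane footpads all 10 genes had higher mean signals in AIRmax than in AIRmin mice. The log2 differences ran from 0.22 for Ctsd to 1.37 for Slc15a3, with a median of 0.84 against -0.01 over all genes. Ctsc, with a 2.31-fold difference, and Ctsl, with a 1.66-fold difference, passed the threshold, 2 of 10 genes where 0.853% of all genes were called higher in AIRmax. For 9 of 10 genes, all but Ctsd, the lowest AIRmax array lay above the highest AIRmin array, as it did for 5.04% of all genes, and the same 9 had an unadjusted p under 0.05, as did 8.77% of all genes. The 7 genes that missed the threshold among these 9 had adjusted p from 0.0509 for Pla2g15 to 0.0771 for Ctsz. SAM, the test named in the study's methods, called all 9 at a false discovery rate of 0.05, a rule under which 2.62% of all genes were called higher. The limma count rested on single arrays: without AIRmin pristane array 117 no gene of the 10 was called, without array 118 of the same group 7 were called, and without array 111, 112, 119 or 120 only Ctsc was. Calls over all genes moved too, from 271 to 14 without array 117 and to 261 without array 118. They were 76, 42, 37 and 15 without array 111, 112, 119 and 120. These are bulk footpad samples, in which more cells of a type and more RNA per cell cannot be told apart.

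The difference between pristane and control footpads had opposite signs in the 2 lines for 9 of 10 genes, all but Slc15a3, although for Ctsd and Ifi30 the AIRmin value was at most 0.03 in size and became positive under both other scalings of the arrays. In AIRmax mice all 10 genes had a higher mean in pristane than in control footpads, by 0.19 to 0.78 on the log2 scale with a median of 0.45, against a median of 0.03 over all genes. None reached an adjusted p under 0.05 by limma, where 0.140% of all genes were called higher, and the adjusted p ran from 0.0797 for Ctsc to 0.591 for Ctsl. At an unadjusted p under 0.05, 9 of 10 were higher, against 7.54% of all genes. SAM called Ctsb, Ctss, Ctsc and Ctsz higher, against 0.953% of all genes. In AIRmin mice 9 of 10 genes had a lower mean in pristane than in control footpads, and the log2 differences ran from -0.58 to 0.09 with a median of -0.34, against 0.02 over all genes. No gene of all 19938 was called in AIRmin mice by limma, so that 0% were called lower and the smallest adjusted p was 0.0513, while 1449 genes were lower at an unadjusted p under 0.05. At an unadjusted p under 0.05, Ctsb, Ctsc, Ctsl and Hgsnat were lower, 4 of 10 genes where those 1449 made 7.27% of all genes. SAM called 420 of all genes in AIRmin mice, 372 of them lower, which is 1.87% of all genes, and among the 10 it called Ctsc lower.

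The difference between the 2 responses was tested by itself over all 16 arrays. It was positive for all 10 genes, from 0.28 for Ifi30 to 1.20 for Ctsc with a median of 0.73, against 0.01 over all genes. Ctsc alone was called, where 0.171% of all genes were called higher, and 7 of 10 genes had an unadjusted p under 0.05, against 5.39% of all genes. In control footpads the lines differed in none of the 10 genes by limma, where 0.0502% of all genes were called higher, and SAM called none, where it called 0.582% of all genes higher. Only Ifi30 and Slc15a3 had an unadjusted p under 0.05 there, both higher in AIRmax, against 8.38% of all genes.

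**Figure D1:**
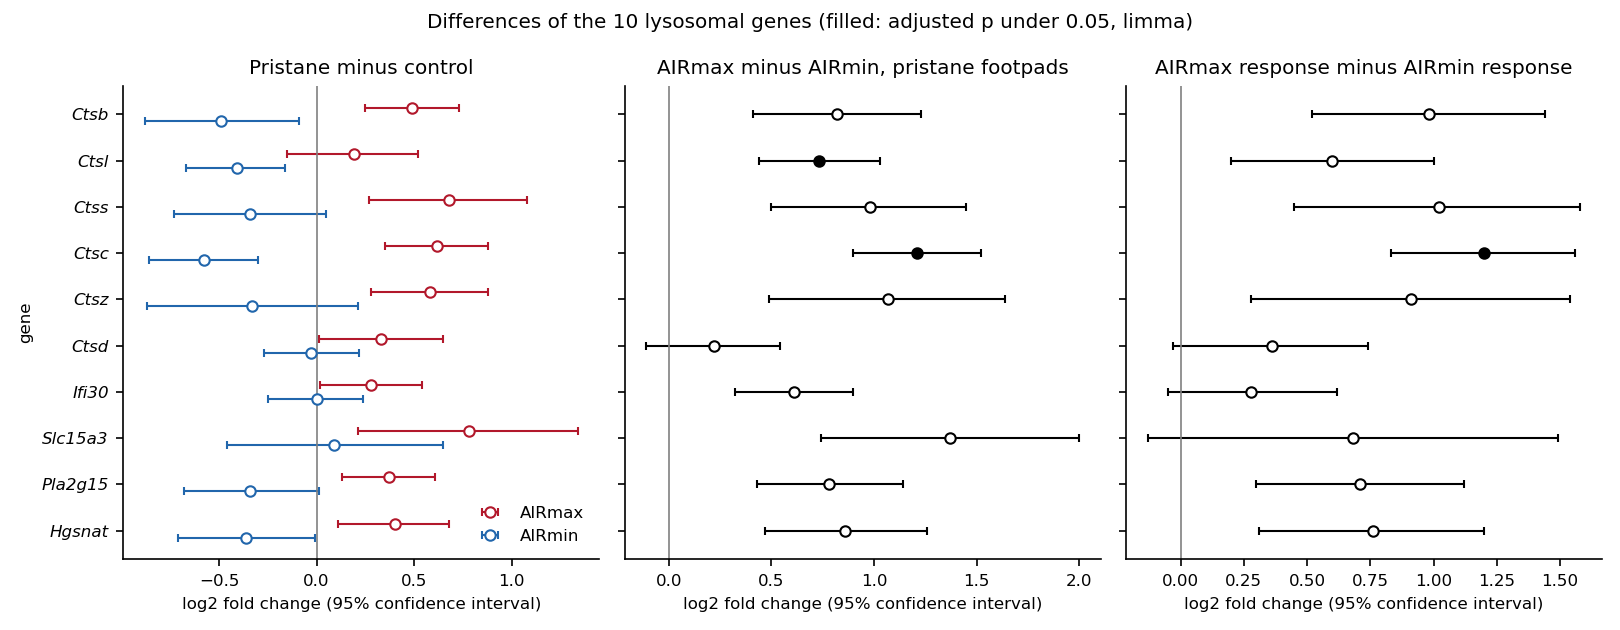
Log2 fold changes of the 10 genes with 95% confidence intervals from limma, for pristane minus control within each line (left), AIRmax minus AIRmin in pristane footpads (middle) and the AIRmax response minus the AIRmin response (right), with filled points for genes called at an adjusted p under 0.05. In the left panel the AIRmax points lie between 0.19 and 0.78 and the AIRmin points between -0.58 and 0.09, and the filled points are Ctsl (middle) and Ctsc (middle and right).

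Ctsc encodes cathepsin C, also called dipeptidyl peptidase 1, which removes dipeptides from the start of proteins and activates the granule serine proteases of neutrophils, mast cells and cytotoxic lymphocytes. Its log2 signals were 10.22, 10.05, 9.95 and 9.89 in AIRmax control and 10.42, 10.58, 10.76 and 10.81 in AIRmax pristane mice. In AIRmin mice they were 9.94, 10.24, 9.96 and 9.92 in control and 9.31, 9.59, 9.20 and 9.64 in pristane footpads. The control values of the lines lay together, all AIRmax pristane values lay above them and all AIRmin pristane values below them. The group means were 10.03 ± 0.14 and 10.64 ± 0.18 in AIRmax and 10.02 ± 0.15 and 9.44 ± 0.21 in AIRmin mice (control and pristane, SD, n = 4). Between the lines the log2 difference in pristane footpads was 1.21 (SE 0.14, 95% interval 0.90 to 1.52, adjusted p = 0.0113 by limma). It kept its call in 7 of 8 fits that left out 1 array, with adjusted p from 0.014 to 0.0615, and lost it without array 117.

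The control difference between the lines in Ctsc was 0.01, with an interval of -0.23 to 0.25, so that a difference of that size in controls could not be resolved with 4 mice a group. Within a line, the difference between pristane and control was 0.62 (SE 0.12, adjusted p = 0.0797 by limma) in AIRmax and -0.58 (SE 0.13, adjusted p = 0.108 by limma) in AIRmin mice. These 2 responses differed by 1.20 (SE 0.17, 95% interval 0.83 to 1.56, adjusted p = 0.0109 by limma). That call was made in each of the 16 fits that left out 1 array, with adjusted p from 0.00426 to 0.0373 and log2 differences from 1.12 to 1.27.

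Promoter sequence was looked at because the 10 genes moved alike over the arrays, and the RefSeq table of mouse promoters (GRCm38.p6) held 7 of them. The table's windows are set by the start of 1 transcript, which may not be the one used in footpads. The 250 bases before that start lay wholly outside the annotated gene for 5 of the 7, Ctss, Ctsz, Ctsd, Ifi30 and Pla2g15. For Ctsc 61 of them lay inside the gene and were left off, and for Ctsl all 250 did, so that its window is not used here. Below are the bases before the gene's annotated start for Ctsc, called between the lines, and for Ctsd and Ifi30, the 2 genes with the smallest difference between pristane and control in AIRmin mice. Capitals mark matches to CACGTG, the core of the element bound by the TFEB family of lysosomal gene regulators, to GGAAGT, a core of PU.1 sites, to TTCNNNGAA, the STAT motif, and to GGGCGG, the Sp1 box, on either strand.
Ctsc, chr7:88277835-88278023, plus strand: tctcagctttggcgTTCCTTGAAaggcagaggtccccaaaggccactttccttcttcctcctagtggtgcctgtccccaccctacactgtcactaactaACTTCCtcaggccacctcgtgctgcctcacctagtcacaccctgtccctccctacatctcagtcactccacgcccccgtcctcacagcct
Ctsd, chr7:142387828-142388077, minus strand: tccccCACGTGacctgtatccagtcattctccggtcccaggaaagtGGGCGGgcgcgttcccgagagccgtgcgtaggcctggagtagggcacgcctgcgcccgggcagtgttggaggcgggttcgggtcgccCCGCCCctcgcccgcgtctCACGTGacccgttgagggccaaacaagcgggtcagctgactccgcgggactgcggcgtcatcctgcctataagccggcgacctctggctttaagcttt
Ifi30, chr8:70766664-70766913, minus strand: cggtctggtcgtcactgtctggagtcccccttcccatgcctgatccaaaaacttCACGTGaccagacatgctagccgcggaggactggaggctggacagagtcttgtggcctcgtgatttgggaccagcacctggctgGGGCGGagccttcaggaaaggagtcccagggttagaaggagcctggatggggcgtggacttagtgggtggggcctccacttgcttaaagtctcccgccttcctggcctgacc
CACGTG stood in 2 of the 5 whole windows, those of Ctsd and Ifi30, and in 5.57% of the 19827 mouse promoter windows of 250 bases that lie wholly outside their own gene. Ctsd held it at 2 places, from 245 to 240 and from 98 to 93 bases before the start. GGGCGG stood in 5 of the 5 and in 26.8% of all such windows. GGAAGT, TTCNNNGAA and the AP-1 motif TGACTCA stood in 0 of the 5, against 19.3%, 7.63% and 4.86% of all. In the 189 bases of Ctsc, GGAAGT, read as ACTTCC on the strand shown, lay 90 to 85 bases and TTCNNNGAA 175 to 167 bases before the start, and 15.5% and 5.71% of all such windows held them in the 189 bases nearest the start. The motifs were searched on both strands and did not overlap each other in the 3 sequences shown. A match describes the letters of the window only.

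Ctsb, Ctsl and Ctss encode cysteine proteases that cut within protein chains. Cathepsin S is made mainly by antigen-presenting cells, where it cleaves the invariant chain, whereas cathepsins B and L are found in most cells. Log2 signals of Ctsl were 9.75, 10.16, 10.09 and 9.66 in AIRmax control and 9.85, 10.06, 10.22 and 10.26 in AIRmax pristane mice. They were 9.82, 9.95, 9.71 and 9.64 in AIRmin control and 9.50, 9.51, 9.14 and 9.32 in AIRmin pristane mice. The AIRmax groups overlapped, whereas every AIRmin pristane value lay below every other value of the gene. The line difference in pristane footpads was 0.73 (SE 0.13, 95% interval 0.44 to 1.03, adjusted p = 0.0362 by limma). It was called in 3 of 8 fits that left out 1 array, with adjusted p from 0.0375 to 0.109, and was not called with sex as a covariate (adjusted p = 0.0593 by limma). The differences between pristane and control were 0.19 (SE 0.15) in AIRmax and -0.41 (SE 0.11) in AIRmin mice, and their difference of 0.60 had an adjusted p of 0.327 by limma.

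Log2 signals of Ctsb were 10.69, 10.78, 10.79 and 10.56 in AIRmax control and 10.97, 11.28, 11.21 and 11.32 in AIRmax pristane mice. They were 10.69, 11.08, 10.84 and 10.86 in AIRmin control and 10.26, 10.75, 9.90 and 10.60 in AIRmin pristane mice. The AIRmax groups did not overlap, and the AIRmin groups did through array 118, the highest of the pristane arrays. The difference between pristane and control was 0.49 (SE 0.11, adjusted p = 0.0986 by limma) in AIRmax and -0.49 (SE 0.18, adjusted p = 0.294 by limma) in AIRmin mice. The difference of the 2 responses was 0.98 (SE 0.22, 95% interval 0.52 to 1.44, adjusted p = 0.0836 by limma).

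Ctss had the brightest arrays among AIRmax pristane females. Its log2 signals were 10.38, 10.44, 10.91 and 10.72 in AIRmax control and 10.91, 11.14, 11.52 and 11.59 in AIRmax pristane mice. They were 10.38, 10.81, 10.72 and 10.71 in AIRmin control and 10.27, 10.60, 9.83 and 10.56 in AIRmin pristane mice. In AIRmax mice the 2 females exceeded the 2 males both in control footpads (means of 10.82 and 10.41) and in pristane footpads (means of 11.56 and 11.02), and the lowest pristane male equalled the highest control female to 2 decimals. The difference between pristane and control was 0.68 (SE 0.18, adjusted p = 0.157 by limma) in AIRmax and -0.34 (SE 0.18, adjusted p = 0.474 by limma) in AIRmin mice. Between the lines in pristane footpads it was 0.98 (SE 0.21, adjusted p = 0.058 by limma).

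**Figure D2:**
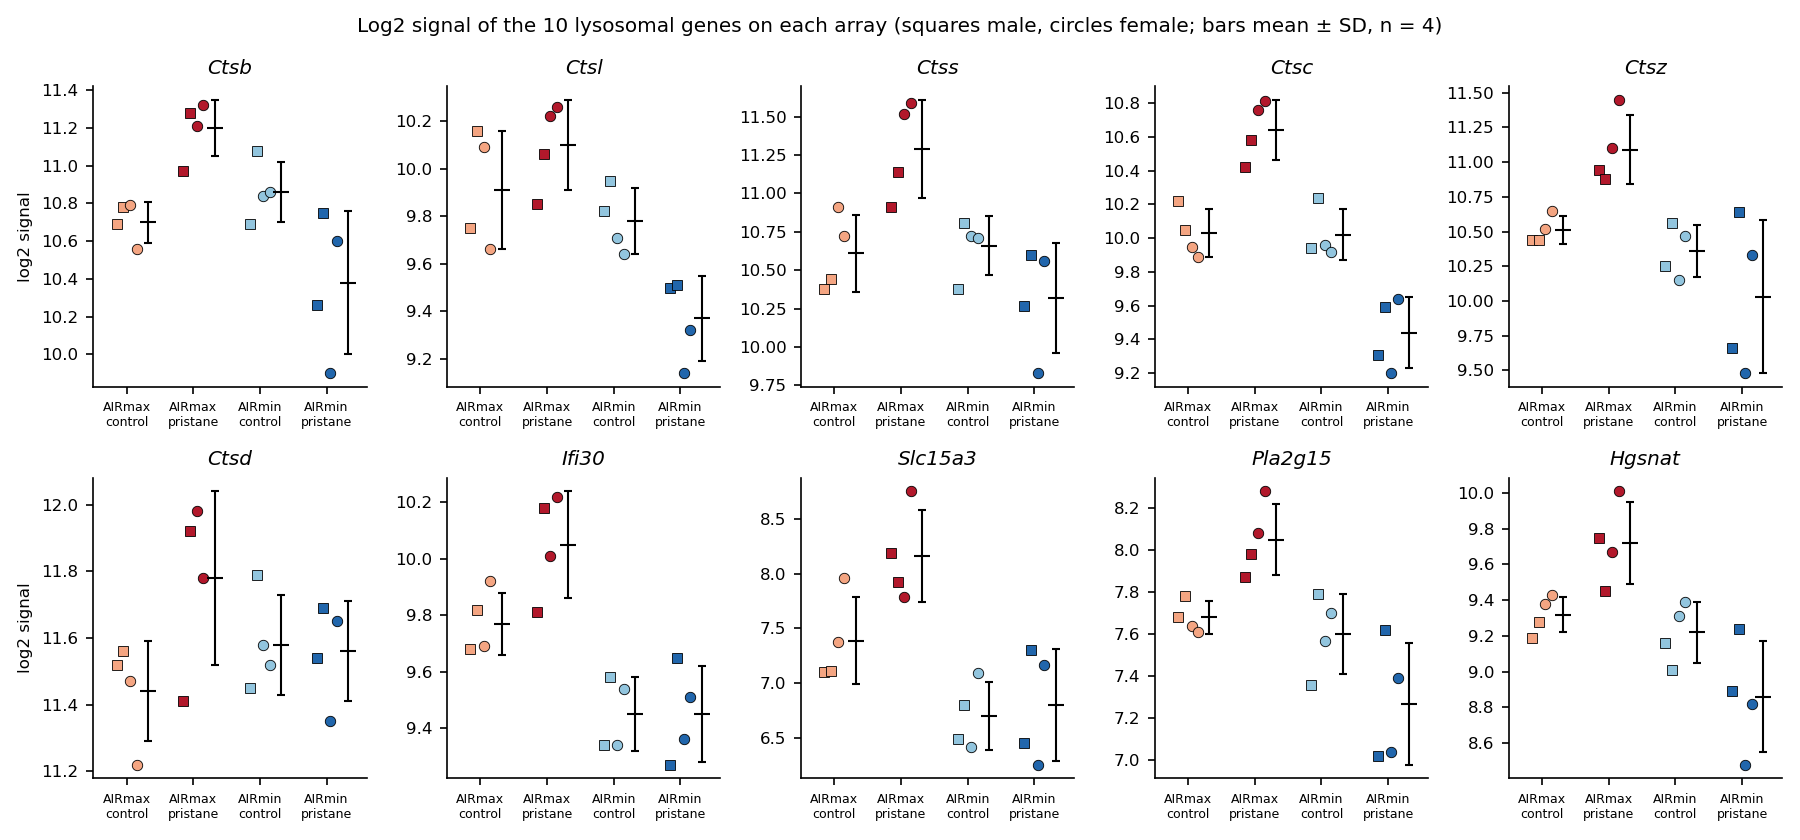
Log2 signal of each of the 10 genes on each array (vertical axis, scaled for each gene), by line and treatment, with squares for males, circles for females and bars for the mean and SD of 4 arrays. For 9 of 10 genes, all but Ctsd, every AIRmax pristane point lies above every AIRmin pristane point, and for Ctsc the control points of the lines lie between them.

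Ctsz encodes cathepsin Z, a carboxypeptidase that trims proteins from their end and is abundant in monocytes and macrophages. Its log2 signals were 10.44, 10.44, 10.52 and 10.65 in AIRmax control and 10.94, 10.88, 11.10 and 11.45 in AIRmax pristane mice. They were 10.25, 10.56, 10.15 and 10.47 in AIRmin control and 9.66, 10.64, 9.48 and 10.33 in AIRmin pristane mice. The AIRmin pristane arrays split, with 117 and 119 below the control range, 120 within it and 118 just above it, and their SD of 0.55 was the highest of the 10 genes in any group. The difference between pristane and control was 0.58 (SE 0.13, adjusted p = 0.117 by limma) in AIRmax and -0.33 (SE 0.24, 95% interval -0.87 to 0.21) in AIRmin mice. The line difference in pristane footpads was 1.07 (SE 0.26, adjusted p = 0.0771 by limma).

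Ctsd encodes cathepsin D, the main aspartic protease of the lysosome. Its log2 signals were 11.52, 11.56, 11.47 and 11.22 in AIRmax control and 11.41, 11.92, 11.98 and 11.78 in AIRmax pristane mice. They were 11.45, 11.79, 11.58 and 11.52 in AIRmin control and 11.54, 11.69, 11.35 and 11.65 in AIRmin pristane mice. All 4 groups overlapped, and AIRmax pristane array 109 lay below the other 3 of its group. The line difference in pristane footpads was 0.22 (SE 0.14, 95% interval -0.11 to 0.54, adjusted p = 0.459 by limma). The AIRmin response was -0.03, with an interval of -0.27 to 0.22.

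Ifi30 encodes the reductase that opens disulfide bonds of antigens in the lysosome and is induced by interferon gamma. Its log2 signals were 9.68, 9.82, 9.69 and 9.92 in AIRmax control and 9.81, 10.18, 10.01 and 10.22 in AIRmax pristane mice. They were 9.34, 9.58, 9.34 and 9.54 in AIRmin control and 9.27, 9.65, 9.36 and 9.51 in AIRmin pristane mice. Both AIRmax groups lay above both AIRmin groups with no overlap. The line difference was 0.32 (SE 0.09, 95% interval 0.11 to 0.54, adjusted p = 0.207 by limma) in control and 0.61 (SE 0.13, 95% interval 0.32 to 0.90, adjusted p = 0.058 by limma) in pristane footpads. The change of that difference with pristane was 0.28 (SE 0.16, adjusted p = 0.694 by limma).

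Slc15a3 encodes PHT2, a proton-coupled transporter that carries histidine and small peptides out of the lysosome. Its log2 signals were 7.10, 7.11, 7.38 and 7.96 in AIRmax control and 8.19, 7.92, 7.79 and 8.75 in AIRmax pristane mice. They were 6.49, 6.80, 6.42 and 7.09 in AIRmin control and 6.46, 7.30, 6.26 and 7.17 in AIRmin pristane mice. The lowest AIRmax control array, at 7.10, lay just above the highest AIRmin control array, at 7.09, and in pristane footpads the lines were further apart. The line difference was 0.69 (SE 0.21, adjusted p = 0.214 by limma) in control and 1.37 (SE 0.28, adjusted p = 0.0521 by limma) in pristane footpads. In AIRmin mice the difference between pristane and control was 0.09, with an interval of -0.46 to 0.65. Groups of Ifi30 and Slc15a3 were thus the 2 of 10 without overlap between control lines, where 5.39% of all genes had AIRmax above AIRmin.

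Pla2g15 encodes a phospholipase that cleaves phospholipids inside the lysosome, and Hgsnat the membrane enzyme that acetylates heparan sulfate so that it can be degraded. Log2 signals of Pla2g15 were 7.68, 7.78, 7.64 and 7.61 in AIRmax control and 7.87, 7.98, 8.08 and 8.28 in AIRmax pristane mice. They were 7.36, 7.79, 7.57 and 7.70 in AIRmin control and 7.02, 7.62, 7.04 and 7.39 in AIRmin pristane mice. The AIRmax groups did not overlap, and AIRmin pristane arrays 117 and 119 lay below all AIRmin controls. The line difference in pristane footpads was 0.78 (SE 0.16, adjusted p = 0.0509 by limma).

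Hgsnat gave log2 signals of 9.19, 9.28, 9.38 and 9.43 in AIRmax control and 9.75, 9.45, 9.67 and 10.01 in AIRmax pristane mice. It gave 9.16, 9.01, 9.31 and 9.39 in AIRmin control and 8.89, 9.24, 8.48 and 8.82 in AIRmin pristane mice. The AIRmax groups did not overlap, as for Ctsb, Ctsc, Ctsz and Pla2g15, which made 5 of 10 genes against 5.09% of all genes with pristane above control in AIRmax mice. In AIRmin mice the groups were apart for Ctsc and Ctsl only, 2 of 10 genes against 4.32% of all genes with pristane below control. The line difference of Hgsnat in pristane footpads was 0.86 (SE 0.18, adjusted p = 0.0515 by limma).

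The 10 genes varied together over the arrays. Over 45 pairs of them, Pearson's r across the 16 arrays ran from 0.28 to 0.95 with a median of 0.81. With the mean of each group taken off it ran from -0.06 to 0.87 with a median of 0.61. The pairs share arrays, normalization and tissue, and these r values are a description. The mean log2 signal of the 10 genes was 9.66 and 9.50 on AIRmin pristane arrays 118 and 120, within the AIRmin control range of 9.49 to 9.76. On array 117 it was 9.22 and on array 119 it was lower again, both below that range. It was 9.66 to 9.78 in AIRmax control and 10.01 to 10.45 in AIRmax pristane mice. The SD of single genes had a median of 0.12 in AIRmax control and of 0.30 in AIRmin pristane mice.

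The genes most like the mean of the 10 standardized genes over the 16 arrays, among 19928 others, were Cd68 (r = 0.97), Plod1 (r = 0.96), Slc4a2, Ctsk and Apobec1 (r = 0.95 each), and 55 genes had r of at least 0.9. Cd68 encodes a lysosomal membrane glycoprotein of macrophages, Plod1 a collagen lysyl hydroxylase, Slc4a2 an anion exchanger and Apobec1 an RNA-editing cytidine deaminase. With group means taken off, Nprl3 and P2rx4 (r = 0.93), Prdx4 (r = 0.92), and Ctsk and Cd68 (r = 0.91) came first, and 7 genes had r of at least 0.9. Cd68 and Ctsk were thus in both sets.

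Other lysosomal genes were examined from lists. Of 8 other cathepsins and legumain, Ctsk was called higher in AIRmax than in AIRmin pristane footpads and 7 of 8 had a positive difference, with a median of 0.53. Ctsk encodes cathepsin K, the collagen-degrading protease of osteoclasts. Its means were 9.97 ± 0.08 and 10.66 ± 0.43 in AIRmax and 9.74 ± 0.38 and 8.77 ± 0.81 in AIRmin mice (control and pristane, SD, n = 4), and the line difference was 1.89 (SE 0.38, adjusted p = 0.0491 by limma) in pristane and 0.24 (adjusted p = 0.483) in control footpads. Lgmn, which encodes legumain, the lysosomal asparaginyl protease, was picked after its values were seen. Its means were 10.33 and 10.91 in AIRmax and 10.47 and 10.00 in AIRmin mice, with a line difference in pristane footpads of 0.91 (SE 0.18, adjusted p = 0.0509 by limma). Pristane minus control was positive for 4 of the 8 in AIRmax mice, with a median of -0.01, and for 1 of 8 in AIRmin mice, with a median of -0.32, with none called. The values of Ctse, Ctsf, Ctso and Ctsw were -0.38, -0.36, -0.27 and -0.13 in AIRmax and -0.10, -0.42, -0.44 and -0.22 in AIRmin mice.

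Of 32 measured lysosomal hydrolases and activators out of 36 listed, Glb1 was called higher in AIRmax than in AIRmin pristane footpads, and 27 of 32 had a positive difference with a median of 0.42. Glb1 encodes lysosomal beta-galactosidase, and its line difference was 1.35 (SE 0.24, adjusted p = 0.0361 by limma) in pristane and 0.41 (adjusted p = 0.273) in control footpads. Pristane minus control was positive for 29 of 32 in AIRmax mice, with a median of 0.17, and for 4 of 32 in AIRmin mice, with a median of -0.24, with none called in either line. Of 13 lysosomal membrane proteins, Cd68 rose in AIRmax mice by 0.81 (SE 0.11, adjusted p = 0.0308 by limma), was higher in AIRmax than in AIRmin pristane footpads by 1.29 (adjusted p = 0.033), and differed between the responses by 1.41 (adjusted p = 0.0346). The 12 others were not called in any comparison, and the list had a median AIRmax response of 0.16.

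Of 14 measured genes of the proton pump and chloride transport out of 15, Atp6v0d2, a pump subunit of macrophages and osteoclasts, was called higher in AIRmax than in AIRmin pristane footpads by 2.31 (SE 0.40, adjusted p = 0.0331 by limma). Its control line difference was 1.11 (SE 0.31, adjusted p = 0.205 by limma). The list had a median of 0.16 there, and medians of 0.20 and 0.00 for the AIRmax and AIRmin responses with none called. Of 9 measured sorting and regulator genes out of 10, Gnptab, which makes the mannose 6-phosphate tag of lysosomal enzymes, was called in the same comparison, by 0.91 (SE 0.14, adjusted p = 0.0243 by limma), and the median was 0.23. The control line difference of Gnptab was 0.65 (SE 0.10, adjusted p = 0.0682 by limma). Of 7 measured transporters of peptides, amino acids, nucleosides and ions out of 8, none was called in any comparison, and the pristane line differences were 0.29 for Slc17a5, the sialic acid exporter, and 0.20 for the nucleoside transporter gene Slc29a3. Of 6 measured cathepsin inhibitors out of 8 none was called. Their pristane line differences were -1.03 for Cst6 and 1.44 for Stfa2, with SDs of 1.23 and 1.69 in AIRmax pristane mice. Stfa2 read as low as 3.91 in AIRmin pristane mice, within the range of the sex genes in the sex that lacks them.

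**Figure D3:**
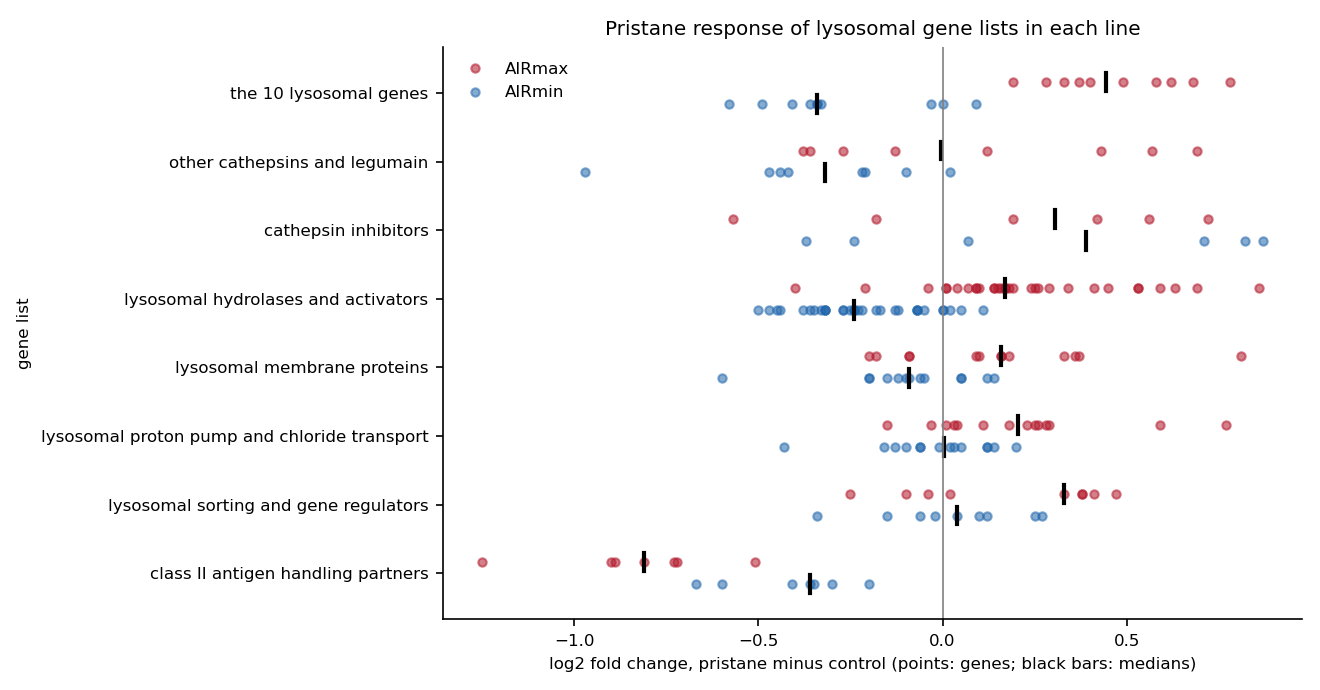
Log2 fold change from control to pristane footpads (horizontal axis) of each of the 10 genes and of the genes in 7 lysosomal and antigen-handling lists (vertical axis), with red points for AIRmax, blue points for AIRmin and black bars for list medians. The medians of the 10 genes are 0.45 and -0.34, those of the hydrolases 0.17 and -0.24, and those of the class II partners -0.81 and -0.36.

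The class II partners, genes whose products work beside these proteases in antigen presentation, did not follow them in AIRmax mice. All 7 measured of 9 had a lower mean in pristane than in control footpads in both lines, with medians of -0.81 in AIRmax and -0.36 in AIRmin mice. H2-Ob fell by 1.25 on the log2 scale in AIRmax mice (SE 0.16, adjusted p = 0.0241 by limma), from 6.88 ± 0.27 to 5.62 ± 0.20 (SD, n = 4). H2-Oa changed there by -0.90 (SE 0.14, adjusted p = 0.0489 by limma), from 6.19 ± 0.18 to 5.29 ± 0.23 (SD, n = 4). These genes encode the chains of H2-O, which restrains peptide loading in B cells. The mean signal of the 6 measured B cell markers was also lower in pristane than in control footpads. In AIRmax mice it ran from 6.09 to 7.14 in control and from 5.13 to 5.80 in pristane footpads. In AIRmin mice it ran from 6.03 to 6.77 in control and from 5.15 to 5.81 in pristane footpads. The median differences of these markers were -1.20 in AIRmax and -1.05 in AIRmin mice. Arrays within a group were not always ordered alike by the means of both lists. The part of B cells in the result was not tested. In control footpads all 7 partners had higher means in AIRmax than in AIRmin mice, with a median of 0.71. None was called, while all 7 had an unadjusted p under 0.05 by limma, against 8.38% of all genes. The paper reports distinct MHC haplotypes in the lines and low expression of H2Ea in AIRmax mice, a gene that was not in the list. The part of haplotype in these values was not tested.

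Among 11 granule proteases that cathepsin C activates or that lie beside them in granules, none was called in either response. Tpsab1, a mast cell tryptase gene, was called lower in AIRmax than in AIRmin mice both in control footpads, by a log2 difference of -2.79 (adjusted p = 0.00476 by limma), and in pristane footpads, by -2.37 (adjusted p = 0.0023 by limma). The neutrophil protease genes Elane, Ctsg and Prtn3 had control line differences of 2.27 (SE 0.60), 2.21 (SE 0.63) and 1.77 (SE 0.65), higher in AIRmax, with adjusted p of 0.191, 0.205 and 0.241 by limma. In pristane footpads their differences were 1.28, 1.30 and 1.12. Ctsc itself did not differ detectably between control lines.

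Markers of cell types moved with the 10 genes. The mean signal of 15 measured macrophage and monocyte markers out of 16 was 8.27 ± 0.09 in control and 8.74 ± 0.18 in pristane footpads of AIRmax mice, and 8.10 ± 0.13 in control and 7.69 ± 0.35 in pristane footpads of AIRmin mice (SD, n = 4). All AIRmax pristane arrays lay above all other arrays, the lowest at 8.60 and the highest control array at 8.36. Among AIRmin pristane arrays it was 7.42, 8.10, 7.38 and 7.86 on arrays 117 to 120, low on 117 and 119 like the 10 genes. Arrays 117 and 119 were also the lowest of this group for neutrophil, fibroblast, osteoclast, B cell and adipocyte markers. They were not the lowest for dendritic cell, mast cell, muscle or keratinocyte markers. In pristane footpads 14 of 15 macrophage and monocyte markers were higher in AIRmax, with a median of 0.96, and Msr1, Adgre1, Cd14 and Fcgr1 were called. Pristane minus control was positive for 11 of 15 in AIRmax mice, with a median of 0.49, and for 2 of 15 in AIRmin mice, with a median of -0.44. In AIRmax mice Msr1, a scavenger receptor gene, rose by 1.82 (SE 0.17, adjusted p = 0.0098 by limma) and Cd14, the lipopolysaccharide co-receptor gene, by 1.58 (SE 0.25, adjusted p = 0.0492 by limma). Csf1r, the defining receptor of macrophages, had a difference of -0.01 (SE 0.14) there and of -0.58 (SE 0.12, adjusted p = 0.107 by limma) in AIRmin mice. The AIRmax differences were also negative for Cd163 (-0.50, SE 0.32), Mrc1 (-0.32, SE 0.16) and Mertk (-0.04, SE 0.21). The part of macrophage number in the lysosomal values was not tested.

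Fibroblast, muscle and osteoclast markers moved with the lines too. The 8 fibroblast markers had a mean signal of 10.51 to 11.00 in AIRmax pristane and of 9.42 to 10.09 in AIRmin pristane mice, against 10.22 to 10.62 and 10.50 to 10.73 in their controls. Pristane minus control was positive for 6 of 8 in AIRmax mice, with a median of 0.13, and for 0 of 8 in AIRmin mice, with a median of -0.74. In AIRmax mice Dcn went from 12.68 to 12.38 and Thy1 from 7.77 to 7.66. Between the lines in pristane footpads, 7 of 8 were higher in AIRmax, and Pdpn, Col3a1 and Lum were called. Dcn was at 12.38 in AIRmax and 12.39 in AIRmin pristane mice. The 11 skeletal muscle markers ran the other way, at 8.20 to 9.72 in AIRmax pristane and 10.06 to 10.49 in AIRmin pristane mice, against 9.62 to 10.19 and 9.25 to 10.64 in controls, and Mb was called lower in AIRmax pristane footpads. The 6 osteoclast markers were at 6.26 to 7.19 and 5.56 to 6.19 in AIRmax and AIRmin pristane mice, against 6.12 to 6.74 and 5.74 to 6.33 in controls, and Dcstamp was called higher in AIRmax pristane footpads. The part of tissue composition in the lysosomal values was not tested.

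**Figure D4:**
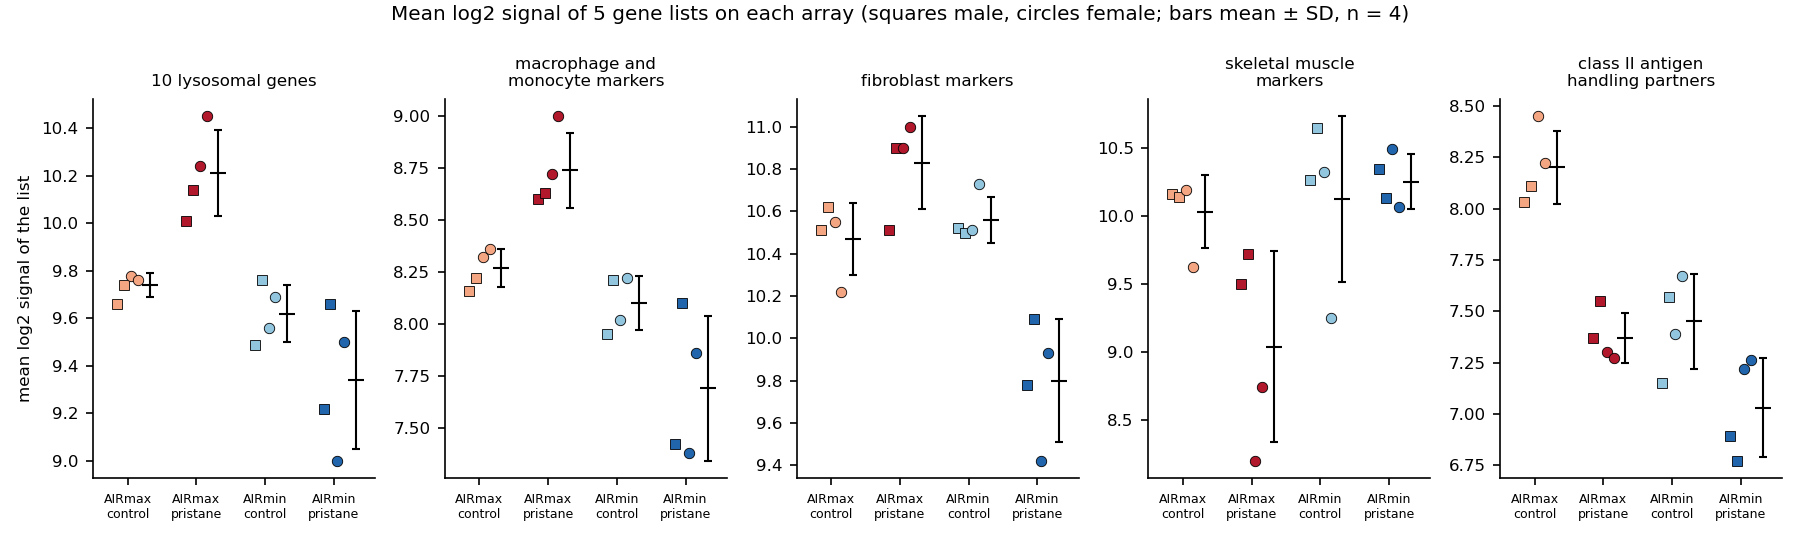
Mean log2 signal on each array of the 10 lysosomal genes and of the markers of macrophages, fibroblasts and skeletal muscle and the class II partners (vertical axis, scaled for each list), with squares for males, circles for females and bars for the mean and SD of 4 arrays. The group means of the 10 genes and of the macrophage markers are highest in AIRmax pristane and lowest in AIRmin pristane mice, whereas that of the class II partners is highest in AIRmax control mice.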

How the data were processed

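Total RNA of 16 footpads was hybridized to Mouse Gene 1.0 ST arrays. The authors deposited 1 normalized log2 signal for each probe set and array. The sample titles name gene-level RMA and the submitters' processing notes name MAS5, with no versions, and which of them made the values is not given in the sources used here. Both correct background and bring arrays to a common scale, and only differences between arrays of 1 gene were compared. No value was changed before testing.

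Of 35556 probe sets, 21789 named 1 gene in the platform annotation, and 21698 of these matched RefSeq by Entrez number. The brightest probe set over 16 arrays represented its gene, which left 19938 genes. The 2 groups of a comparison were fitted with limma 3.58.1 (lmFit and eBayes, R 4.3.3) on their own 8 arrays, the difference of responses on all 16, with Benjamini-Hochberg adjustment over all genes at 0.05. Standard errors and 95% intervals are those of limma. SAM was written anew from its published description, with all 70 relabellings of the arrays. The main limma fits and SAM were tried on simulated data in which genes varied independently, and the other settings were not. Python 3.11.15 (pandas 2.3.3, numpy 2.4.6) served for tables, and matplotlib 3.10.9 for figures.

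The 10 genes and the 19 lists were chosen with earlier results of these data known. Listed genes are named where they were called, or otherwise as the 2 with the smallest p in pristane footpads between the lines. Lgmn, Ctse, Ctsf, Ctso, Ctsw, Csf1r, Cd163, Mrc1, Mertk, Dcn, Thy1, Elane, Ctsg and Prtn3 were named after their values were seen. Alternatives were probe sets averaged over a gene, all probe sets, bright genes only, standardized arrays (the study's scaling), quantile normalization, sex as a covariate, another prior, a 2-fold minimum, all arrays in 1 fit, SAM and each array left out. Arrays have no counted depth, so 4 arrays a group set the precision. No batch is named in the labels, and array numbers run by group, so that batch and group cannot be told apart. Of the listed genes, 17 with no probe set of their own in the annotation, Slc11a1 among them, were not analysed here.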

Additional observations from a re-analysis of the deposited data

Results flagged for a closer look

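In 1 of 40 groups of 4 arrays tested, 1 array stood apart from the other 3: Ctsc in AIRmin control mice, where array 114 read 10.24 and the others 9.92 to 9.96, a gap of 0.88 of the whole range. Chance gives about 2 such groups in 40. Without array 114 the difference of the Ctsc responses was 1.12 (adjusted p = 0.031 by limma).

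The Ctsc response to pristane differed between the lines, by 1.20 on the log2 scale (adjusted p = 0.0109 by limma, all 16 arrays), with all 4 AIRmax pristane arrays above and all 4 AIRmin pristane arrays below the control arrays of their line.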

How the results depend on the processing

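With settings changed 1 at a time, the number of the 10 genes called moved as follows. For the AIRmax response it was 0, with 1 called under sex as a covariate (Ctss, adjusted p = 0.037 by limma) and 1 with all 16 arrays in 1 fit (Ctsc, adjusted p = 0.0196 by limma), and 4 by SAM. Over all genes 56 were called in the main fit, and 109, 338 and 751 in these settings, in the same order. For the AIRmin response 0 of the 10 genes were called, and 1 by SAM, with 0 and 420 called over all genes. For the lines in pristane footpads 2 of the 10 were called, 7 with standardized arrays, 5 with quantile normalization and 3 with bright genes only. The number was 1 with sex as a covariate, 1 with a minimum of 2-fold, 9 with all 16 arrays in 1 fit and 9 by SAM. Calls over all genes were 271 in the main fit, 333 with standardized arrays, 337 with quantile normalization and 205 of 9969 with bright genes only. They were 173, 157, 1519 and 1033 in the other settings, in the order given. With 1 array left out 0 to 7 of the 10 were called, and 14 to 520 of all genes. For the difference of responses 1 of the 10 was called, 2 with standardized arrays (Ctsb added), and 1 to 2 with 1 array left out, Ctsb being called without array 109 or 118. Over all genes 34 were called, 61 with standardized arrays, 120 without array 109 and 71 without array 118. For control footpads the number of the 10 genes called stayed at 0 in every setting, where the main fit called 16 of all genes. No paired analysis was possible because array numbers are unique to each mouse.

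Of 960 values of single genes under the alternatives, 938 kept their sign. Only standardized arrays, quantile normalization and a left-out array could change a log2 difference. The other settings returned the main value, so their signs were fixed in advance and the count is no measure of robustness. The AIRmin response of Ctsd became 0.05 with standardized arrays and 0.01 with quantile normalization, that of Ifi30 0.05 and 0.03, and the control line difference of Ctsc -0.04 and -0.02. With 1 array left out, the AIRmin response ran from -0.07 to 0.04 for Ctsd, from -0.07 to 0.06 for Ifi30 and from -0.07 to 0.27 for Slc15a3, and the control line difference from -0.14 to 0.04 for Ctss, from -0.05 to 0.09 for Ctsc and from -0.01 to 0.13 for Pla2g15. The cause of these changes was not tested.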

Other observations

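Further cell type lists were read beside the 10 genes, with no gene called in any comparison unless named. The 8 measured neutrophil markers had a mean signal of 9.22 to 10.87 in control and 8.92 to 10.95 in pristane footpads of AIRmax mice, and of 6.80 to 9.36 in control and 6.83 to 10.27 in pristane footpads of AIRmin mice, with a median line difference of 1.81 in control and 1.44 in pristane footpads. Mmp9, a neutrophil gelatinase gene, differed by 2.27 (adjusted p = 0.142 by limma) between the lines in pristane footpads, and Csf3r, the receptor of granulocyte colony-stimulating factor, by 1.62 (adjusted p = 0.175 by limma).

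The 7 measured adipocyte markers had lower means in pristane than in control footpads in both lines, with medians of -1.07 in AIRmax and -0.73 in AIRmin mice, and the pristane line differences were -0.68 for Cidec and -0.70 for Plin1, both lipid droplet genes. The 6 measured B cell markers had medians of -1.20 and -1.05, with pristane line differences of -0.37 for Cd22 and 0.31 for Cd79b. Of the 7 footpad keratinocyte markers all had a lower mean in AIRmax than in AIRmin pristane footpads, with a median of -0.74, -1.67 for Flg2 and -0.79 for Krt14. The 6 dendritic cell markers had medians of 0.02 and 0.00 for the AIRmax and AIRmin responses, and line differences in pristane footpads of 0.54 for Itgax and -0.20 for Zbtb46. Of 7 mast cell markers only Tpsab1 was called, in the line comparisons given above, and the list medians of the responses were -0.27 and -0.35.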
